A study of Mus musculus with 2 samples.

Results

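A set of 9 genes of the Notch pathway was followed across the cell classes of the early postnatal mouse retina: the receptor Notch1, the DNA-binding factor Rbpj, the effectors Hes1, Hes5 and Hey1, and the ligands Dll1, Dll3, Dll4 and Jag1. They were taken by symbol from both count tables, which list 30905 genes each, and all 9 members were found, each with 1 row and an identifier that matched the annotation. Transcripts had been counted per cell by droplet 3′ RNA sequencing of retinas at p7, with 1 control library and 1 Mettl3-CKO library from the same litter and 2 retinas pooled in each. Mettl3-CKO mice are Six3-Cre+ and homozygous for a floxed allele of Mettl3, the methyltransferase that writes m6A on mRNA; Six3-Cre acts in retinal progenitor cells, the study checked the loss of the protein in the central retina, and the alleles of the littermate controls were not given in the sources used here. With 1 library per genotype no difference between genotypes could be tested against animals, so each value is given with a 95% interval that covers counting error only, and no p-value is given.

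In Notch signalling, a Delta or Jagged ligand on one cell binds a Notch receptor on its neighbour, the receptor is cut, and its intracellular part enters the nucleus and joins Rbpj to switch on Hes and Hey repressor genes. In the developing retina this keeps progenitors undifferentiated, and Hes1 and Hes5 go on being made in Müller glia, the last cell type that progenitors produce. Cells that begin to turn into neurons raise Delta ligands and lose Hes transcripts.

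To show what the effectors and ligands carry at their starts, the 250 bases before the transcription start of Hes5, Dll3 and Dll1 are given here from RefSeq (build GRCm38.p6), 5′ to 3′ on the strand of the gene. Of the 9 members, 7 had at least 1 such window, 9 windows in all, and Hes1 and Hey1 had none. Capitals mark TGGGAA, the core letters bound by Rbpj, searched on both strands. They also mark CAGCTG, one of a pair of E-boxes bound by proneural bHLH factors such as Neurog2; its partner in the search, also on both strands, was CAGATG.
Hes5, chr4:154960673-154960922, plus strand: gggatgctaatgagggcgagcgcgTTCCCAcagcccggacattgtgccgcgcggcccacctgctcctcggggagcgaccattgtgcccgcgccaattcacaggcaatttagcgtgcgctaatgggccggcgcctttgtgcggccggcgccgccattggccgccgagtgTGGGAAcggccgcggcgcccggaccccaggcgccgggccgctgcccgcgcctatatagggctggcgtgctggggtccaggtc
Dll3, chr7:28301786-28302035, minus strand: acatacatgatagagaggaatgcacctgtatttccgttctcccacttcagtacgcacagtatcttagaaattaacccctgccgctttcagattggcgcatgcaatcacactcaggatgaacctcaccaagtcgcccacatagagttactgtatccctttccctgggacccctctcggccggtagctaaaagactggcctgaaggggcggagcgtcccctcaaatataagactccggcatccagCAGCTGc
Dll1, chr17:15376933-15377182, minus strand: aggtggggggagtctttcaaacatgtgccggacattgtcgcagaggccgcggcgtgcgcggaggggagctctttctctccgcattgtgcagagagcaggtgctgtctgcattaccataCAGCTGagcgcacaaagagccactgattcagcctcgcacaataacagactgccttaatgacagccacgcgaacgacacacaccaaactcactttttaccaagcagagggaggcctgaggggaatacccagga
The Hes5 window held the Rbpj letters 2 times, once on each strand, starting 226 and 82 bases before the start. Of 32851 promoter windows of this length, 21.6% held them at least once and 2.77% held them 2 or more times. The Dll3 and Dll1 windows held CAGCTG once each, starting 7 and 132 bases before the start, as did the Jag1 window; Dll1 has another window (chr17:15375824-15376073), which held none of the letters searched, and 25.5% of all windows held at least 1 of the bHLH sequences. Rbpj itself had 2 overlapping windows, with 2 copies and 1 copy of the Rbpj letters, and the copy in the second is also 1 of those in the first. The windows of Notch1 and Dll4 held none of these letters. A match of letters is a description of the window and not a bound site.

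The count tables as read here ended before their stated number of entries, and whether the originals do so is not known. Thus 3994 of 5995 barcodes were analysed in the control and 3109 of 6992 in Mettl3-CKO, with a median of 4766 and 5441 UMIs per cell. The analysed cells of both libraries shared 5 barcodes. Cells were put in classes by marker lists that held none of the 9 members. In the control and Mettl3-CKO libraries there were 199 and 323 cycling progenitor-like cells, 177 and 209 neurogenic-like cells (markers such as Neurog2, Atoh7 and Olig2), 958 and 813 precursor-like cells (markers such as Neurod4, Otx2, Prdm1 and Crx), 365 and 258 Müller-like cells, 1067 and 641 rod-like, 131 and 130 cone-like and 56 and 58 amacrine-like cells. The leading genes by fold matched these names (Cnga1 and Sag in rod-like, Neurog2 and Gadd45g in neurogenic-like cells), except that Ttr, which is no glial marker, came before Rlbp1 in Müller-like cells. Of those, 14 control cells and 1 Mettl3-CKO cell had 5 or more Ttr UMIs, and these held no Hes5 UMI. Bipolar-like cells were too few in Mettl3-CKO (28) to be compared, and ganglion-like cells were at 0 in both libraries. Mettl3 itself was at 39.5 CPM (UMIs per 1000000 of the cells summed, mitochondrial genes left out) in control and 33.1 CPM in Mettl3-CKO, a ratio of 0.837 (95% interval 0.754 to 0.928), but UMIs come from the 3′ end of transcripts, so they need not fall in the deleted part and do not check the deletion. Xist, made from the inactive X chromosome of females, was at 1.53 CPM in control and 1544 CPM in Mettl3-CKO, so sex and genotype cannot be told apart at the level of whole libraries.

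**Figure D1:**
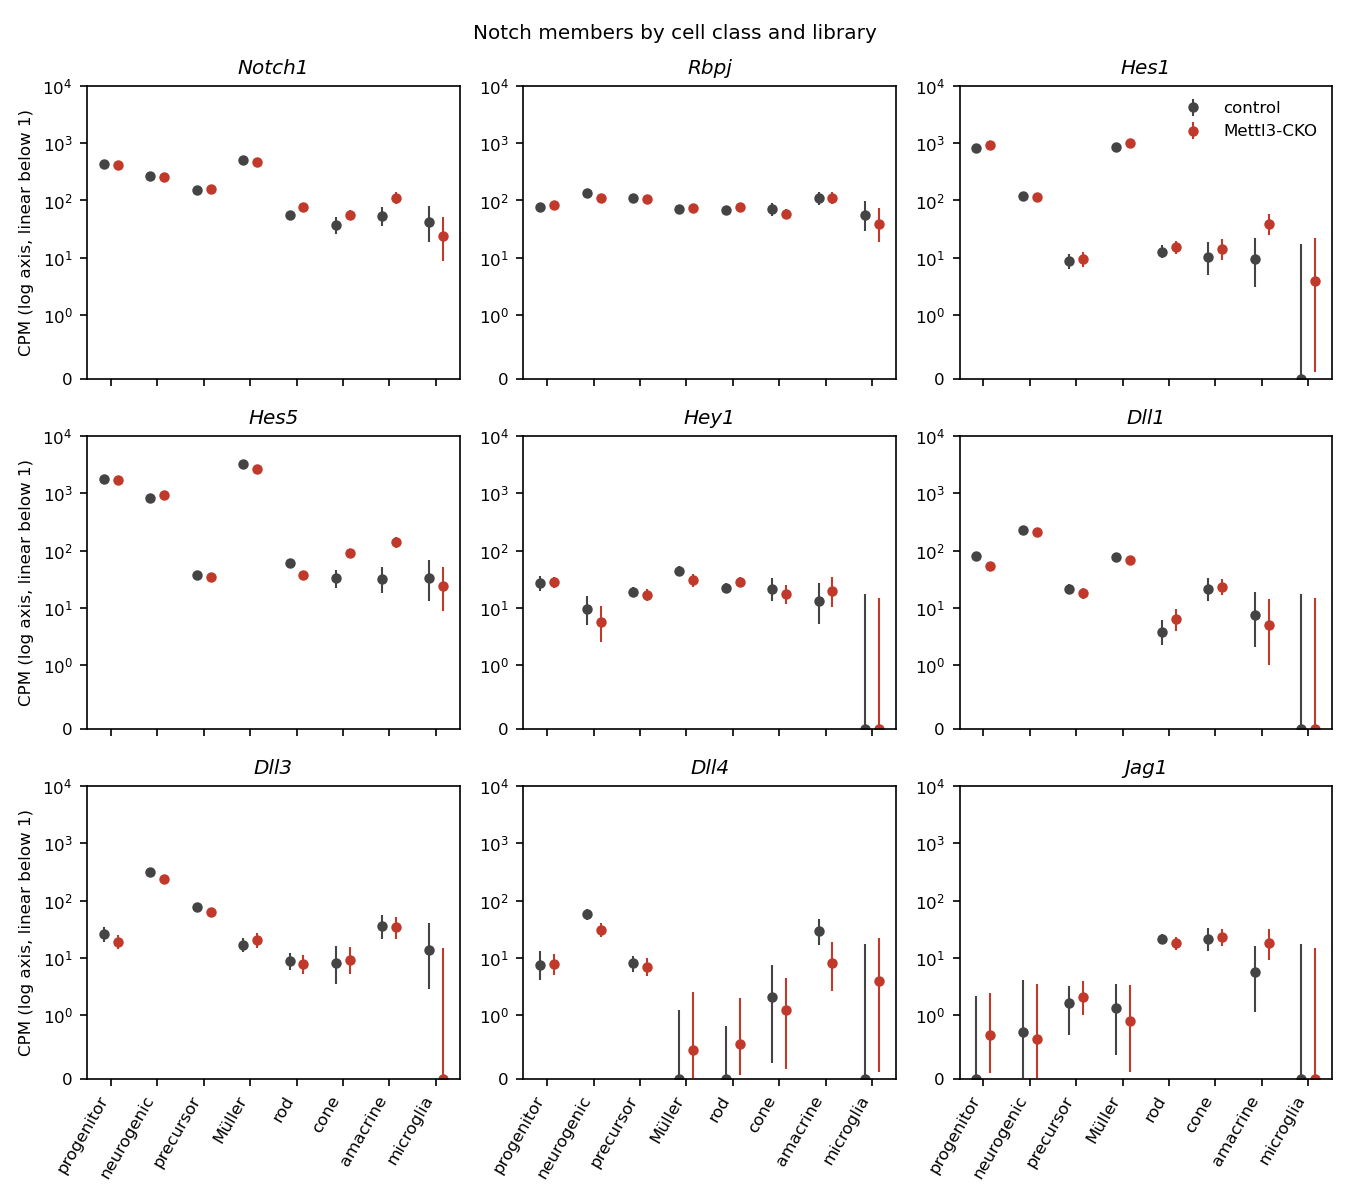
CPM of the 9 members (y axis, log scale, linear below 1) in 7 retinal cell classes and in microglia-like cells (x axis), for control (grey) and Mettl3-CKO (red), with bars for 95% Poisson intervals. Hes1 and Hes5 were highest in progenitor-like and Müller-like cells, Dll1, Dll3 and Dll4 in neurogenic-like cells, and Jag1 in rod-like and cone-like cells, in both libraries.

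Notch1 (chr2:26457903-26516663, minus strand, GRCm38), the receptor, was highest in Müller-like and progenitor-like cells and fell stepwise along the path to photoreceptors. In the control it was at 508 CPM in Müller-like (95% interval 482 to 534), 442 CPM in progenitor-like (411 to 475), 268 CPM in neurogenic-like, 150 CPM in precursor-like and 56.2 CPM in rod-like cells. In Mettl3-CKO the same classes held 463, 419, 257, 157 and 76.3 CPM, in the same order. Müller-like cells exceeded progenitor-like cells 1.15-fold in control (1.05 to 1.26) and 1.11-fold in Mettl3-CKO (1.02 to 1.20). Within the control, neurogenic-like cells held 0.608 times the progenitor-like level (0.535 to 0.689), precursor-like cells 0.560 times the neurogenic-like level (0.494 to 0.636), and rod-like cells 0.373 times the precursor-like level (0.322 to 0.432). Microglia-like cells, which are of another lineage and stand here for the background, held 41.9 CPM in control (19.2 to 79.6) and 23.7 CPM in Mettl3-CKO (8.71 to 51.7). Cone-like cells of the control, at 37.0 CPM, were not separable from this level. Those of Mettl3-CKO, at 55.7 CPM (44.8 to 68.4), lay above the upper bound for microglia-like cells, though the 2 intervals overlapped. Free RNA itself was not measured, and 4 and 2 of the 35 and 31 microglia-like cells had markers of another class. Whether microglia-like cells make Notch1 themselves was not tested, so their level, from 9 and 6 UMIs, may lie above the background. The annotated genes 0610009E02Rik and Gm13568 overlap Notch1 on the other strand.

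Rbpj (chr5:53466152-53657362, plus strand), the nuclear partner of the cut receptor, varied little between classes. Its levels in the control ran from 69.4 CPM in rod-like to 133 CPM in neurogenic-like cells, and those in Mettl3-CKO from 58.7 CPM in cone-like to 113 CPM in neurogenic-like cells. It was 1.74 times higher in neurogenic-like than in progenitor-like cells of the control (1.38 to 2.19) and 1.36 times in Mettl3-CKO (1.11 to 1.65). Müller-like and progenitor-like cells did not differ beyond counting error, with ratios of 0.941 (0.754 to 1.18) in control and 0.885 (0.721 to 1.09) in Mettl3-CKO. Microglia-like cells held 55.9 and 39.6 CPM, from 12 and 10 UMIs, with an upper bound of 97.6 CPM in control. The lower control levels lay below that bound. Whether microglia-like cells make Rbpj themselves was not tested, so their level is not read as background for this gene.

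Hes1 (chr16:30064384-30067796, plus strand), a repressor that Notch switches on, was high in progenitor-like and Müller-like cells and low in the other 5 classes compared. It was at 832 CPM in progenitor-like cells of the control (789 to 877) and 920 CPM in those of Mettl3-CKO (885 to 955). In Müller-like cells it was at 874 CPM (840 to 908) and 992 CPM (951 to 1035). Neurogenic-like cells held 120 and 116 CPM, or 0.144 times the progenitor-like level in control (0.121 to 0.169) and 0.126 times in Mettl3-CKO (0.108 to 0.147). Precursor-like cells held 8.63 and 9.50 CPM and rod-like cells 12.8 and 15.3 CPM, within the interval of microglia-like cells, whose upper bounds were 17.2 and 22.0 CPM. After each cell was thinned to 2000 UMIs, 63.6% of 319 Müller-like control cells (Clopper-Pearson interval 58.1 to 68.9%) and 71.3% of 240 Mettl3-CKO cells (65.1 to 76.9%) were expected to show a Hes1 UMI, against 80.0% and 85.3% unthinned, and 0 of 13 microglia-like cells in each library, a share that allows up to 24.7%.

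Hes5 (chr4:154960923-154962371, plus strand), the Notch effector whose window held 2 separate copies of the Rbpj letters, was highest in Müller-like cells. The control had 3197 CPM there (3133 to 3262) and Mettl3-CKO 2619 CPM (2551 to 2687). Progenitor-like cells had 1788 CPM (1725 to 1852) and 1676 CPM (1629 to 1724), and neurogenic-like cells 836 CPM (788 to 886) and 942 CPM (896 to 991). The step up from progenitor-like to Müller-like cells was thus 1.79-fold in control (1.72 to 1.86) and 1.56-fold in Mettl3-CKO (1.504 to 1.62). Precursor-like cells, at 37.3 and 34.0 CPM, lay within the interval of microglia-like cells, which held 32.6 CPM in control (13.1 to 67.2) and 23.7 CPM in Mettl3-CKO (8.71 to 51.7). The expected share of Müller-like cells with a Hes5 UMI after thinning was 85.3% in control (80.9 to 89.0%) and 85.0% in Mettl3-CKO (79.8 to 89.3%), so the libraries differed in the level of Hes5 and not detectably in the share of cells with it.

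Hey1 (chr3:8663359-8667256, minus strand), a related repressor, was low and spread over the classes. It was at 44.6 CPM in Müller-like cells of the control (37.3 to 52.9) and 30.1 CPM in those of Mettl3-CKO (23.3 to 38.3), and at 27.0 and 27.7 CPM in progenitor-like cells. Of the 7 classes compared, its lowest level was in neurogenic-like cells, with 9.54 CPM from 13 UMIs and 5.59 CPM from 9 UMIs. Rod-like cells held 22.0 and 28.4 CPM, a level above that of precursor-like cells in Mettl3-CKO (ratio 1.68, 1.25 to 2.28) and not separable from it in control (1.15, 0.862 to 1.55).

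Dll1 (chr17:15367354-15376872, minus strand), a Delta ligand that activates Notch on the neighbouring cell, was highest in neurogenic-like cells, at 231 CPM in control (206 to 258) and 213 CPM in Mettl3-CKO (191 to 236). Progenitor-like cells held 79.1 CPM (66.3 to 93.6) and 54.8 CPM (46.6 to 64.0), and Müller-like cells 78.7 CPM (68.9 to 89.5) and 69.7 CPM (59.1 to 81.7). Neurogenic-like cells thus held 2.92 times the progenitor-like level in control (2.38 to 3.6) and 3.88 times in Mettl3-CKO (3.21 to 4.71). Precursor-like cells held 21.5 and 17.9 CPM, below 0.1 times the neurogenic-like level in both libraries. Cone-like cells held more than rod-like cells, at 21.6 against 3.82 CPM in control and 23.5 against 6.29 CPM in Mettl3-CKO. A930024N18Rik overlaps Dll1 on the other strand.

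Dll3 (chr7:28293553-28302238, minus strand), a Delta family member that acts within the cell that makes it and does not activate Notch on neighbours, was highest in neurogenic-like and next highest in precursor-like cells. Neurogenic-like cells held 321 CPM in control (291 to 352) and 238 CPM in Mettl3-CKO (215 to 263), or 12.4 times the progenitor-like level in both, with intervals of 9.11 to 17.4 and 9.36 to 16.7. Precursor-like cells kept 77.1 CPM (69.6 to 85.2) and 64.6 CPM (57.5 to 72.2), or 0.241 times (0.209 to 0.276) and 0.271 times (0.233 to 0.316) that level. Rod-like cells held 8.76 and 7.93 CPM.

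Dll4 (chr2:119325784-119335962, plus strand), the third Delta ligand, was at 57.9 CPM in neurogenic-like cells of the control (45.9 to 72.2, from 79 UMIs) and 31.1 CPM in those of Mettl3-CKO (23.1 to 41.0, from 50 UMIs). Progenitor-like cells held 7.62 and 7.88 CPM and precursor-like cells 8.03 and 6.96 CPM. Amacrine-like cells held 29.8 CPM in control (17.1 to 48.4, from 16 UMIs) and 8.20 CPM in Mettl3-CKO (2.66 to 19.1, from 5 UMIs). Endothelial cells also make Dll4, and 9 of the 79 and 8 of the 50 neurogenic-like UMIs lay in cells with a UMI of an endothelial marker. Of the amacrine-like UMIs, 9 of 16 and 2 of 5 did. Müller-like cells held 0 Dll4 UMIs in the control, with an upper bound of 1.25 CPM, and 1 UMI in Mettl3-CKO.

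Jag1 (chr2:137081456-137116644, minus strand), the Jagged ligand, had another distribution. It was found in rod-like cells, at 21.6 CPM in control (17.5 to 26.3) and 18.1 CPM in Mettl3-CKO (14.0 to 23.0), and in cone-like cells, at 21.6 CPM (13.4 to 33.0) and 22.9 CPM (16.1 to 31.5). Amacrine-like cells held 5.59 CPM (1.15 to 16.3, from 3 UMIs) and 18.0 CPM (9.005 to 32.3, from 11 UMIs). Precursor-like cells held 1.61 and 2.11 CPM, and rod-like cells exceeded them 13.4-fold in control (6.55 to 32.0) and 8.55-fold in Mettl3-CKO (4.37 to 18.7). Over the progenitor-like, neurogenic-like and Müller-like cells of each library, Jag1 UMIs numbered 0, 1 and 4 in control and 2, 1 and 2 in Mettl3-CKO. The 3 rod-like cells with the most Jag1 held 6.25% of the class's UMIs in control and 9.09% in Mettl3-CKO, so no few cells held the signal.

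The neurogenic-like class was not uniform, and Neurod4, a bHLH gene that follows Neurog2 as cells leave the progenitor state, divided the members inside it. Of its cells, 119 of 177 in control and 155 of 209 in Mettl3-CKO had a Neurod4 UMI. Cells with no Neurod4 UMI held Hes1 at 302 CPM in control and 334 CPM in Mettl3-CKO, while those with a Neurod4 UMI held 42.8 and 47.5 CPM. Hes5 was at 1970 and 2038 CPM without Neurod4 and at 358 and 596 CPM with it. Hes5 in the cells without Neurod4 was 1.10 times the progenitor-like level in control (1.02 to 1.19) and 1.22 times in Mettl3-CKO (1.13 to 1.31), while in the cells with Neurod4 it was 0.2 times (0.178 to 0.224) and 0.355 times (0.328 to 0.384). Dll1 went the same way as the effectors, at 457 and 471 CPM without Neurod4 against 136 and 131 CPM with it. Dll3 did not, at 292 and 266 CPM without Neurod4 and 333 and 229 CPM with it, nor did Dll4, at 54.4 and 25.9 CPM against 59.4 and 32.7 CPM.

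A Neurod4 UMI is more often caught in deep cells, so the split was repeated on cells thinned to 2000 UMIs, over 100 draws of the thinning. In these, Hes5 with Neurod4 was 0.123 times the level without it in control (counting interval 0.0871 to 0.170, draws from 0.0568 to 0.242) and 0.156 times in Mettl3-CKO (0.121 to 0.1995). Hes1 was 0.0633 times (0.0124 to 0.190) and 0.0441 times (0.00871 to 0.129). Dll1 was 0.277 times (0.163 to 0.463) and 0.220 times (0.131 to 0.359), and Dll3 1.06 times (0.690 to 1.64) and 0.890 times (0.580 to 1.37), so Dll3 did not differ detectably. Neurod4 was chosen for this split after earlier results of these data were known.

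**Figure D2:**
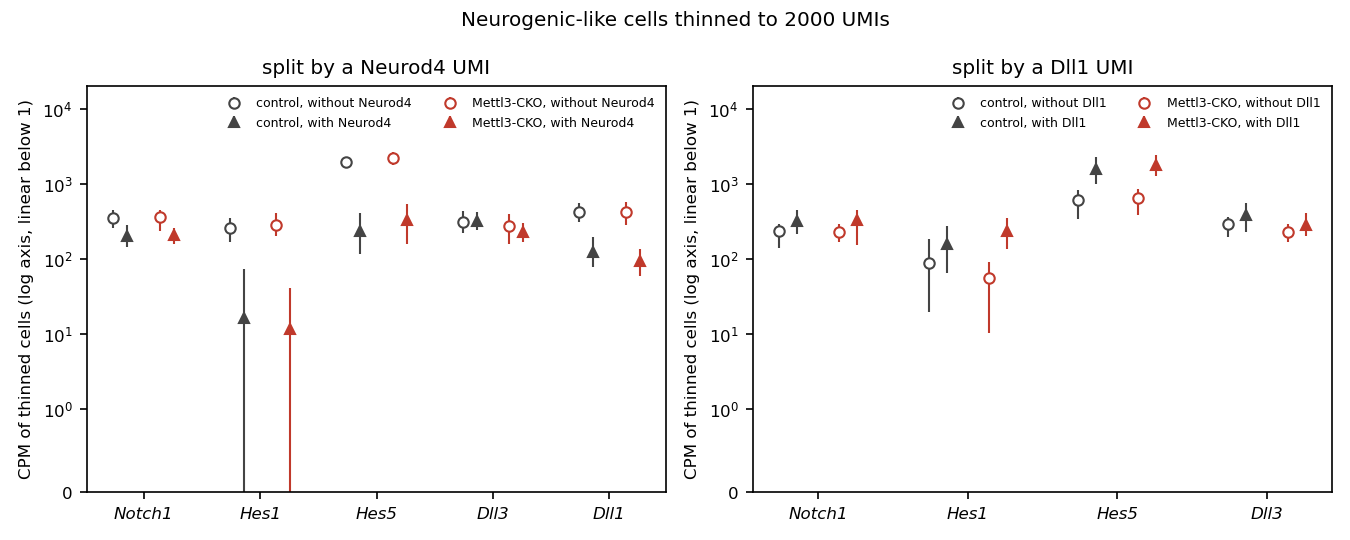
CPM (y axis, log scale, linear below 1) of Notch1, Hes1, Hes5, Dll3 and Dll1 in neurogenic-like cells thinned to 2000 UMIs, split by a Neurod4 UMI (left) or a Dll1 UMI (right), for control (grey) and Mettl3-CKO (red). Open circles are cells without and filled triangles cells with the UMI; each point is the median and each bar the range over 100 draws of the thinning, and Hes1, Hes5 and Dll1 lie lower in cells with Neurod4 in both libraries.

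Neurogenic-like cells with the ligand Dll1 also had more of the effector Hes5. After the same thinning, those with a Dll1 UMI held 2.57 times the Hes5 of those without it in control (2.03 to 3.27, draws from 1.18 to 6.06) and 2.85 times in Mettl3-CKO (2.31 to 3.49, draws from 1.66 to 5.65). Hes1 was 1.74 times as high in control (0.816 to 3.68) and 4.30 times as high in Mettl3-CKO (2.19 to 8.60), the control value being inside counting error. Dll1 and Hes5 were both higher in neurogenic-like cells without Neurod4, and the Dll1 split was not made within those cells. Whether Dll1 and Hes5 go together apart from the Neurod4 split was thus not tested. In progenitor-like cells the Hes5 ratio was 1.56 in control (1.25 to 1.93) and 1.28 in Mettl3-CKO (1.04 to 1.58), but single draws ran below 1, to 0.616 and 0.706, and no direction is read from them. In Müller-like cells it was 1.12 (0.990 to 1.28) and 1.26 (1.06 to 1.48), again with draws below 1, to 0.793 and 0.905.

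Between the libraries, most members differed by far less than they did between classes. A gene was compared in a class where both libraries together held 50 UMIs, and a change of 1.5-fold in either direction was the size marked. No member passed it in progenitor-like cells (0 of 7, against 11.1% of all genes compared there), precursor-like cells (0 of 8, against 4.54%) or Müller-like cells (0 of 7, against 12.3%). In neurogenic-like cells 1 of 7 passed it, Dll4, against 9.96% of all genes, and in rod-like cells 1 of 7, Hes5, against 5.58%. Notch1 and Hes5 passed it in cone-like cells (2 of 5, against 10.2%; neither did without mixed-marker cells) and in amacrine-like cells (2 of 3, against 11.1%). The median log2 ratio of Mettl3-CKO over control over the members compared was -0.078 in progenitor-like, -0.12 in neurogenic-like, -0.16 in precursor-like and -0.13 in Müller-like cells, where the medians of all genes were 0.059, 0.020, -0.0018 and 0.049. It was 0.15 in rod-like, 0.12 in cone-like and 1.02 in amacrine-like cells, from 7, 5 and 3 members, against 0.021, 0.030 and 0.013 for all genes.

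**Figure D3:**
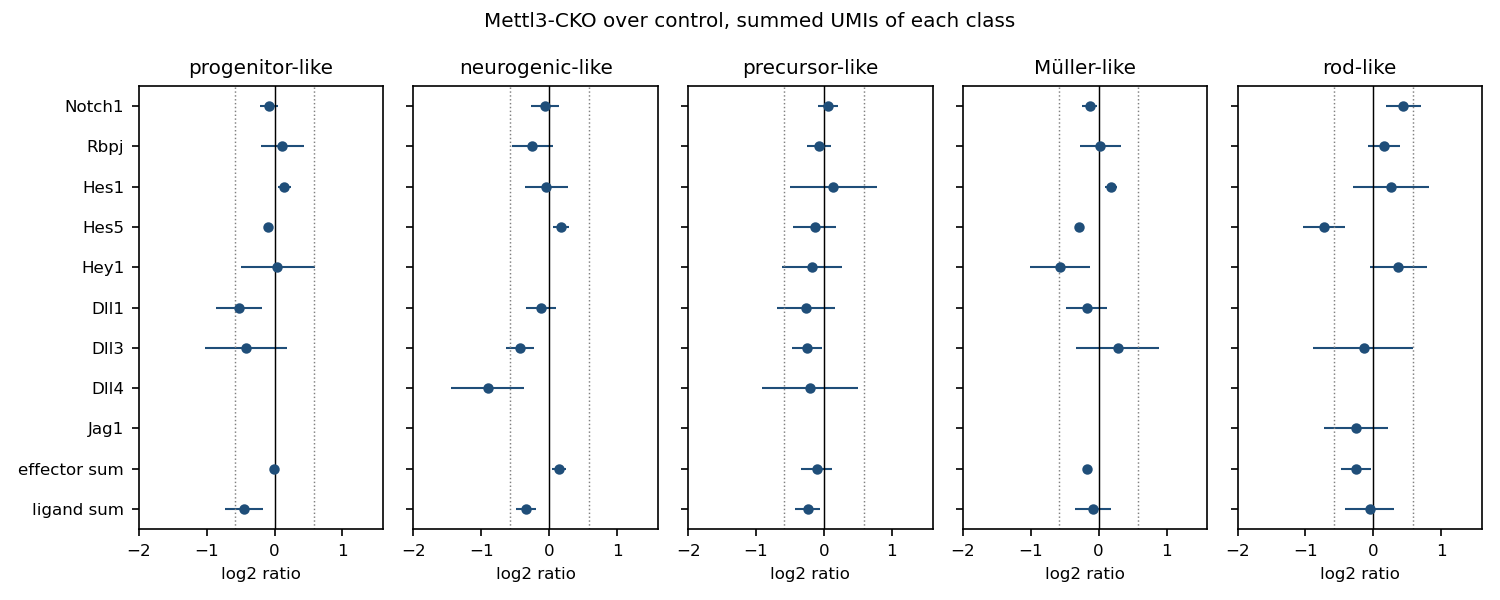
log2 ratio of Mettl3-CKO over control (x axis) for each member and for the summed effectors (Hes1, Hes5, Hey1) and ligands (Dll1, Dll3, Dll4, Jag1) in 5 classes, with 95% counting intervals; dotted lines mark 1.5-fold and members under 50 UMIs are left out. Ligand sums lie below 0 in progenitor-like, neurogenic-like and precursor-like cells, and in Müller-like cells Hes5 lies below and Hes1 above 0.

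The summed ligands were lower in Mettl3-CKO in each of the 3 classes on the path from progenitor to precursor, though not each ligand was. The sum had a log2 ratio of -0.45 in progenitor-like cells (-0.73 to -0.17), -0.34 in neurogenic-like cells (-0.48 to -0.20) and -0.24 in precursor-like cells (-0.43 to -0.055). In progenitor-like cells taken from Leiden clusters it was -0.10. Dll3, which does not activate Notch on neighbours, weighed most in 2 of these sums. Dll3, Dll1 and Dll4 held 437, 315 and 79 control UMIs in neurogenic-like cells and 384, 107 and 40 in precursor-like cells. No sum without Dll3 was made, so the sum is not a measure of activating ligand. In progenitor-like cells the difference lay in Dll1, at 0.693 times control (0.548 to 0.878), with Dll3 at 0.744 (0.492 to 1.13). In neurogenic-like cells it lay in Dll3, at 0.743 (0.646 to 0.854), and Dll4, at 0.536 (0.369 to 0.774), while Dll1 was at 0.920 (0.787 to 1.08). In precursor-like cells Dll3 was at 0.838 (0.719 to 0.976), and Dll1 (0.621 to 1.12), Dll4 (0.530 to 1.41) and Jag1 (0.467 to 3.83) had intervals that held 1, as did Dll4 in progenitor-like cells (0.502 to 2.22). The Dll3 ratio was 0.689 in neurogenic-like cells with Neurod4 (0.584 to 0.811) and 0.913 in those without it (0.694 to 1.20). A Cdkn1a UMI was found in 31 of the 209 neurogenic-like cells of Mettl3-CKO and in 0 of the 177 of control. Dll3 was at 75.0 CPM in those 31 cells and 272 CPM in the other Mettl3-CKO cells of the class, against 321 CPM in control. Dll1 did not go this way, at 232 CPM with Cdkn1a and 208 CPM without it. In Müller-like cells the ligand sum was at -0.081 (-0.35 to 0.18), but at -0.72 with Leiden clusters and 0.16 (-0.12 to 0.43) without cells with a Cdkn1a UMI, so no direction is read from it.

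The effectors did not move as 1 group. Their sum was at -0.013 in progenitor-like (-0.066 to 0.041), 0.14 in neurogenic-like (0.036 to 0.25), -0.11 in precursor-like (-0.34 to 0.13) and -0.18 in Müller-like cells (-0.22 to -0.14). In Müller-like cells Hes5 was at 0.819 times control (0.792 to 0.846) and Hey1 at 0.675 times (0.495 to 0.914), while Hes1 was at 1.14 times (1.07 to 1.20). In progenitor-like cells Hes1 was at 1.11 times (1.04 to 1.18) and Hes5 at 0.937 times (0.896 to 0.981). In neurogenic-like cells Hes5 was at 1.13 times (1.04 to 1.22), a difference found in cells with Neurod4, at 1.67 times (1.46 to 1.90), and not beyond counting error in those without it, at 1.03 times (0.936 to 1.14). After thinning, Hes5 in the cells with Neurod4 was at 235 CPM in control and 331 CPM in Mettl3-CKO, with draws that overlapped, from 114.1 to 411.5 and from 156 to 542 CPM. Notch1 was at 0.912 times control in Müller-like cells (0.841 to 0.988), with the opposite direction (log2 0.066) when each cell was weighted equally, and Rbpj was within counting error in progenitor-like, neurogenic-like, precursor-like and Müller-like cells.

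Xist and Cdkn1a moved with these ratios. Xist was found in 49.8% of its progenitor-like cells and 54.3% of its Müller-like cells, with Hes5 at 2035 CPM in progenitor-like cells with Xist and 1127 CPM in the 162 without it, against 1788 CPM in control. The Hes5 log2 ratio in progenitor-like cells was thus 0.19 with Xist (median 10536 UMIs per cell) and -0.67 without it (median 5893 UMIs), and was also -0.67 when only cells of at least 4000 UMIs were used. In Müller-like cells Hes5 was below control in both, at 2844 CPM with Xist and 2298 CPM without it against 3197 CPM, while Hes1 was above control in both, at 980 and 1009 CPM against 874 CPM.
Cdkn1a, a cell-cycle inhibitor, was found in 24.4% of Müller-like cells in Mettl3-CKO and 4.11% in control. In Mettl3-CKO cells with it Hes5 was at 1815 CPM and Hes1 at 1139 CPM, against 2916 and 937 CPM in those without it. In the 15 control Müller-like cells with it Hes5 was at 3452 CPM and Hes1 at 1085 CPM, against 3183 and 862 CPM. In progenitor-like cells, Hes5 with and without it was at 1781 and 1792 CPM in control and 1351 and 1905 CPM in Mettl3-CKO. Hes1 with and without it was at 886 and 803 CPM there in control and 830 and 983 CPM in Mettl3-CKO. In Mettl3-CKO, Hes1 thus went opposite ways with Cdkn1a in Müller-like and progenitor-like cells. In neurogenic-like cells of Mettl3-CKO, Hes5 was at 354 CPM with Cdkn1a and 1066 CPM without it, and no control cell of that class had a Cdkn1a UMI. By these summed levels, Hes5 was lower in cells with Cdkn1a in Mettl3-CKO and not clearly so in control. Thinned to 2000 UMIs, Mettl3-CKO Müller-like cells with Cdkn1a held 0.718 times the Hes5 of those without it (0.610 to 0.841), with every one of 100 draws below 1. They held 1.28 times the Hes1 (1.02 to 1.6, draws from 0.990 to 1.77). The thinned Hes5 ratio in control Müller-like cells was 0.867 (0.587 to 1.25, draws from 0.206 to 1.72), from a median of 5 cells with Cdkn1a. That interval holds the Mettl3-CKO value, so a contrast between the libraries is not shown there. With the cells with Cdkn1a left out of both libraries, the log2 ratio of Hes5 in Müller-like cells was -0.13 (-0.18 to -0.075) in place of -0.29, and that in progenitor-like cells 0.089 (0.0078 to 0.17) in place of -0.093. What Xist and Cdkn1a contribute to the ratios was not tested.

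**Figure D4:**
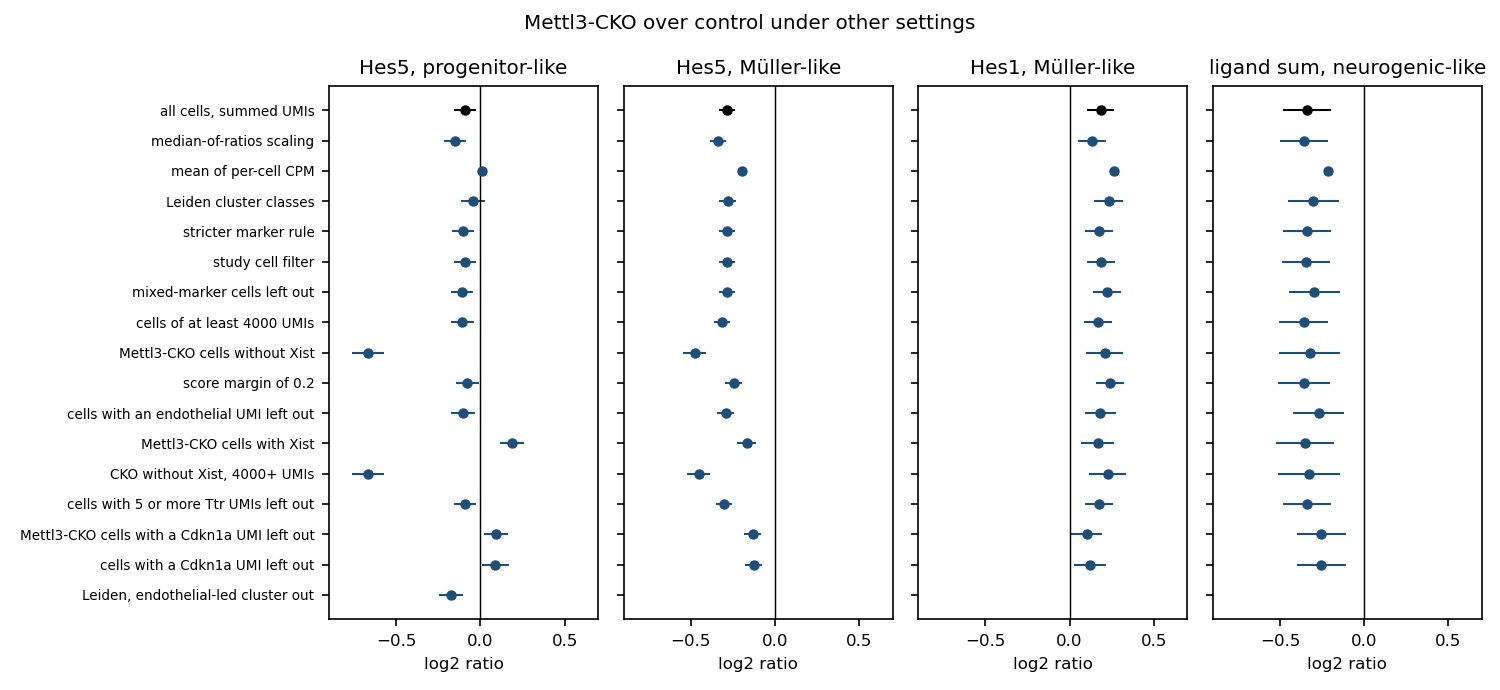
log2 ratio of Mettl3-CKO over control (x axis) for Hes5 in progenitor-like and Müller-like cells, Hes1 in Müller-like cells and the ligand sum in neurogenic-like cells under each setting (rows), with 95% counting intervals where summed UMIs were used. Hes5 in progenitor-like cells lies on both sides of 0, at -0.67 without Xist and 0.19 with it, whereas Hes5 and Hes1 in Müller-like cells and the ligand sum keep their sides in all settings shown.

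The larger ratios in differentiated neurons rested on few cells. Hes5 was at 32.9 CPM in cone-like cells of the control and 90.3 CPM in those of Mettl3-CKO, a ratio of 2.74 (1.86 to 4.16). Of the 146 Mettl3-CKO UMIs, 103 lay in 3 cells and 106 in the 21 cells with markers of 2 unrelated classes, and without such cells the log2 ratio was -0.048. The log2 ratio of Notch1 in cone-like cells was 0.59 (0.016 to 1.19) and, without such cells, 0.29 (-0.35 to 0.96). In amacrine-like cells Hes5 was at 31.7 and 141 CPM, a ratio of 4.45 (2.62 to 7.99), with 66 of 86 Mettl3-CKO UMIs in 3 cells. Here the log2 ratio was no smaller without mixed-marker cells, at 2.37 (1.57 to 3.27) against 2.15. Hes1 there was at 9.32 CPM from 5 UMIs and 39.4 CPM from 24 UMIs, with 19 of the 24 in 3 cells. In rod-like cells Hes5 was at 61.6 CPM in control and 37.2 CPM in Mettl3-CKO, with 112 of the 274 control UMIs in 3 cells. Its ratio of 0.604 (0.488 to 0.745) went to a log2 ratio of -0.10 (-0.46 to 0.25) once cells with mixed markers were left out. The part of doublets and of cells put in the wrong class in these values was not tested.
Notch1 in rod-like cells was at 1.36 times control (1.14 to 1.62) and in amacrine-like cells at 2.03 times (1.30 to 3.26, from 29 and 67 UMIs), where the control levels, 56.2 and 54.1 CPM, lay within the interval of microglia-like cells. The Mettl3-CKO levels, 76.3 CPM (67.6 to 85.8) and 110 CPM (85.2 to 140), lay above the interval of Mettl3-CKO microglia-like cells (8.71 to 51.7).

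The rest of the pathway was read from a list of 54 further genes, of which 42, 38, 43 and 45 had 50 UMIs in progenitor-like, neurogenic-like, precursor-like and Müller-like cells. In progenitor-like cells 2 of 42 lay above 1.5-fold and 1 below it, where 11.1% of all genes lay past it in either direction. Dtx1, a ubiquitin ligase that binds the Notch intracellular part and is itself a Notch target in some tissues, went from 35.2 to 69.5 CPM (ratio 1.98, 1.48 to 2.68), and Spen, a corepressor that binds Rbpj, from 55.7 to 113 CPM (2.03, 1.61 to 2.58). Numbl, a relative of the Notch inhibitor Numb, went from 21.1 to 13.0 CPM (0.617, 0.381 to 1.002).
In neurogenic-like cells Dtx1 was again above it, at 19.1 and 34.8 CPM (1.83, 1.13 to 3.03), and 2 of 38 genes were below it, against 9.96% of all genes in either direction: Dlk1, an atypical ligand, at 30.1 and 14.3 CPM (0.475, 0.272 to 0.811), and the acetyltransferase Kat2b, at 40.3 and 25.5 CPM (0.632, 0.411 to 0.964). No gene of the list passed in either direction in precursor-like cells. The median log2 ratio of the list was 0.10 in progenitor-like, 0.015 in neurogenic-like, -0.025 in precursor-like and 0.046 in Müller-like cells.

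In Müller-like cells 4 of 45 genes of the list were above 1.5-fold and 1 was below it, a share near the 12.3% of all genes. Dtx1 went from 49.3 to 77.0 CPM (1.56, 1.24 to 1.96), so it was above the mark in 3 of these 4 classes. Notch3, a receptor known from pericytes and other mural cells, went from 9.12 to 24.6 CPM (2.70, 1.67 to 4.46). Tle3, a corepressor of Hes factors, went from 40.2 to 63.8 CPM (1.59, 1.24 to 2.05), and the Notch coactivator Maml1 from 10.8 to 17.8 CPM (1.65, 1.005 to 2.71). Notch4, a receptor of endothelial cells, went from 18.6 to 9.57 CPM (0.515, 0.296 to 0.866). A UMI of 1 of 5 endothelial markers was found in 16.2% of Müller-like cells in control and 13.6% in Mettl3-CKO, and its part in the Notch3 and Notch4 values was not tested.

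Genes with profiles most like those of 4 members were ranked by Pearson's r of log2(CPM + 10) over 18 points, 9 classes in each of 2 libraries, among 10296 genes that were neither class markers nor predicted genes. The points share libraries and some classes hold under 50 cells, so r is a description only. Nearest to Notch1 were Plpp3 (r = 0.961), Grb10 (0.960) and Ndufa4l2 (0.959). Nearest to Hes1 were Nr2e1 (0.987), a nuclear receptor of progenitors and Müller glia, Col2a1 (0.984) and Col23a1 (0.984), and nearest to Hes5 were Sox8 (0.985), Crym (0.984) and Kit (0.975). Dll1 had less close neighbours, with Mast4 (0.943), Lrrc58 (0.934) and Lgr4 (0.920).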

How the data were processed

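Per the study's methods, the authors filtered reads with fastp and aligned them to mm10 (GRCm38) with Cell Ranger 3.1.0, and the deposited values are raw UMI counts per gene and cell from a 3′ kit; Seurat 3.1 in the submitters' processing notes was not rerun. The 13 mitochondrial genes were left out of totals (5.53% and 4.19% of UMIs). Total counts were 22181683 in control and 20830028 in Mettl3-CKO. Incomplete last cells were dropped. The stated cell filter (over 200 genes, under 20% mitochondrial UMIs) would remove 237 and 86 cells and was an alternative. No doublet caller was run.

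Each marker's log1p of UMIs per 10000 was made a z-score over all cells (held within 5 of 0) and averaged over its list; a cell took the class of its highest score, of at least 0.5, among lists with 3 or more UMIs from 2 or more markers. This rule was set after the data were seen. The highest score was under 0.6 in 1 and 6 progenitor-like, 18 and 19 neurogenic-like, 110 and 79 precursor-like and 23 and 17 Müller-like cells; 865 and 582 cells stayed unclassed. Classes were not free of other classes' markers. Median precursor markers (73.9 and 66.2 UMIs per 10000) exceeded the neurogenic ones (62.0 and 62.2) in neurogenic-like cells, and precursor (23.9 and 20.9) and neurogenic markers (18.1 and 17.9) exceeded amacrine ones (13.3 and 13.1) in amacrine-like cells; in Müller-like cells neurogenic markers (7.70 and 11.1) lay below Müller ones (43.2 and 31.0). Members, gene lists and splits were chosen with earlier results of these data known.

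UMIs were summed per class and library, with exact Poisson intervals for levels, conditional binomial intervals for ratios and Clopper-Pearson intervals for shares (95%); a count of 0 was set to a floor of 3 UMIs. UMIs count transcript 3′ ends, so no length term was used. All 9 members, and other pathway genes past 1.5-fold with 50 UMIs in progenitor-like, neurogenic-like, precursor-like or Müller-like cells, were named. Alternatives were median-of-ratios scaling, mean CPM of single cells, Leiden clusters (leidenalg 0.10.2), a rule of 6 marker UMIs, a gene filter of 20 UMIs and subsets of cells. The ratio was tested on simulated Poisson counts, the spread that its interval assumes, so that test does not cover differences between cells. Python 3.11.15, numpy 2.4.6 and scipy 1.17.1 were used.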

Additional observations from a re-analysis of the deposited data

Results flagged for a closer look

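Xist was at 1544 CPM over all cells of the Mettl3-CKO library and at 1.53 CPM over those of the control, a signal outside the Notch comparisons. Among the 7 retinal classes compared, the share of Mettl3-CKO cells with a Xist UMI ran from 49.8% in progenitor-like to 77.6% in amacrine-like cells, and that of control cells from 0% to 1.53%. Cells without a Xist UMI in Mettl3-CKO can be male cells or female cells in which it was not caught.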

How the results depend on the processing

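No paired analysis was possible because each genotype has 1 library, and for the same reason no replicate could be left out. Values here are log2 ratios of Mettl3-CKO over control. For the effector sum, median-of-ratios scaling gave -0.072 in progenitor-like and -0.23 in Müller-like cells, and the mean CPM of single cells 0.078 and -0.091. With Leiden clusters it was 0.46 in neurogenic-like, 0.24 in precursor-like cells, where it had been -0.11 with an interval that held 0, and 0.029 in rod-like cells, so the sign turned in both; without mixed-marker cells it turned to 0.076 in rod-like cells. With Leiden clusters the ligand sum was -0.10 in progenitor-like, -0.55 in precursor-like and -0.72 in Müller-like cells. A cluster named progenitor-like (56 and 80 cells) was led by endothelial genes such as Cldn5; without it, an alternative added after seeing the data, the effector sum was -0.092 and the ligand sum -0.13. Without Xist the effector sum was -0.38 in progenitor-like and -0.31 in Müller-like cells and the ligand sum -0.73 in progenitor-like cells. These alternatives were added after seeing the data: with Xist the effector sum was 0.19 in progenitor-like and -0.093 in Müller-like cells; without Xist and with at least 4000 UMIs it was -0.37, -0.29 and, in rod-like cells, -0.60, and the ligand sum -0.75 in progenitor-like cells; with a score margin of 0.2 the effector sum was -0.13 in Müller-like cells. With cells with Cdkn1a left out of Mettl3-CKO alone, the effector sum was 0.14, 0.30 and -0.082 in progenitor-like, neurogenic-like and Müller-like cells and the ligand sum 0.20 in Müller-like cells; left out of both libraries, the effector sums were 0.15, 0.30 and -0.074. Among members, signs turned for Hes5 in progenitor-like cells (0.012 as a mean of single cells, 0.19 with Xist, 0.092 without Cdkn1a cells of Mettl3-CKO, 0.089 without those of both libraries), Notch1 in Müller-like cells (0.066 as a mean of single cells), and Hes5 (-0.048) and the effector sum (-0.19) in cone-like cells without mixed-marker cells. The stricter marker rule, the study's cell filter, a minimum of 4000 UMIs, leaving out cells with endothelial UMIs and leaving out cells with 5 or more Ttr UMIs moved none of the 10 effector and ligand sums of the 5 classes beyond its counting interval. With a filter of 20 UMIs, the share of all genes past 1.5-fold was 16.1% in neurogenic-like, 8.18% in precursor-like, 9.6% in rod-like, 16.4% in cone-like and 20% in amacrine-like cells. The causes of these shifts were not tested. Jag1, Dll4 and Hey1 are limited by depth, with 153, 167 and 479 UMIs in all control cells.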
